A study of Mus musculus with 18 samples.

Results

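The comparison set bone-marrow-derived macrophages of PHD3 knockout mice against those of wild-type mice in the absence of stress, that is at the oxygen label 20 and with control feeding. Its members were the 3 samples titled knockout and the 3 titled wild type in that condition, 6 of the 18 samples of the series. PHD3, encoded by Egln3, is a prolyl hydroxylase that uses molecular oxygen to modify the alpha subunits of the hypoxia-inducible factors (HIF), the transcription factor that switches genes on when oxygen is short. Hydroxylated HIF-alpha is bound by the von Hippel-Lindau protein and degraded. PHD2, encoded by Egln1, is known as the main enzyme of this kind in normal oxygen, whereas Egln3 is itself a HIF target gene and is strongly expressed when oxygen falls. In macrophages HIF is known for its part in glycolysis, survival and inflammatory output.

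The 6 samples used here carried no treatment and shared the strain C57BL/6J, male sex, an age of 8 weeks and 7 days of culture of femoral marrow cells with M-CSF, the growth factor that drives marrow precursors into macrophages. One group was wild type and the other had the genotype PHD3-/-. The other 12 samples, used below for comparison, were wild type and PHD3-/- at the oxygen label 1 with control feeding and at the oxygen label 20 with starvation, 3 samples each; the oxygen label carries no unit. The labels name no targeting construct, Cre line or cell type restriction for the knockout, and they do not say if mice or cultures were starved. The design text gives 3 mice each, and nothing says whether samples of different groups came from one animal. Some genes kept their order by replicate number within a genotype across the conditions. Slx, chosen after its values were seen, was lowest in replicate 2 of the wild type in all 3 conditions, at -4.50, -4.67 and -4.36, where the other wild-type samples read -3.68 or above. If samples of one number and genotype came from one mouse, the conditions are not separate evidence and the average of both stressed conditions counts 3 mice of each genotype as 6 samples.

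RNA of each sample was read on a 1-colour Agilent mouse array, with 200 ng of RNA labelled per array. A level is the log2 processed signal minus the 75th percentile of its array, so 0 marks that percentile and a difference of 1 is a 2-fold difference. The 6 samples took 7 arrays on 5 slides, since replicate 1 of the knockout was hybridised on 2 arrays. The share of spots well above background was 58.6% to 62.1%, the 75th percentile was 1004 to 1556 signal units, and no spot was saturated. Replicate 1 of the wild type and replicate 3 of the knockout stood apart from the rest. Across genes they correlated at r = 0.9934 with each other, while replicate 1 of the wild type correlated at 0.9915 and 0.9921 with its own group and replicate 3 of the knockout at 0.9915 and 0.9904 with its own. The remaining 4 samples correlated with one another at 0.9941 to 0.9962.

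All 10 measured macrophage markers of 11 listed were well above background in all 6 samples, among them Adgre1 (an adhesion receptor that marks mouse macrophages), Csf1r (the M-CSF receptor), Mertk (a receptor for dying cells) and Mpeg1 (a pore-forming protein of phagocytes). Their summed linear signal, in units of the array's 75th percentile, ranged from 380.5 to 428.1 in the wild type and from 327.4 to 365.3 in the knockout, and Lyz2 was one of its largest parts. Of the 10, only Lyz2 had the knockout wholly below the wild type (-1.003), and only Mertk had it wholly above (0.10, SE 0.17). Over all genes 2.53% were wholly below and 2.47% wholly above. The other large parts, Adgre1 (-0.04), Csf1r (0.03) and Mpeg1 (-0.06), had groups that overlapped. Neutrophil markers, 7 of 8 measured, summed to 11.99 to 18.7 in the wild type against 9.67 to 15.8 in the knockout, with overlap. Of the T cell markers 1 of 3, Cd3e, was measured, at 0.383 to 0.439 in the wild type against 0.512 to 0.601 in the knockout. Of the B cell markers 3 of 4 were measured, with sums of 0.0535 to 0.131 in the wild type and 0.0648 to 0.0729 in the knockout. Their part in the results was not tested. In these bulk samples, fewer cells of a type and less RNA per cell cannot be told apart.

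No gene separated unstressed knockout from wild-type macrophages at the threshold of limma's moderated test. Of 20570 genes tested, 0 (0.00%) had an adjusted p under 0.05, and the smallest adjusted p was 0.206, for Abtb2 and Lyz2. At an unadjusted p under 0.05 there were 284 genes (1.38%), 134 higher in the knockout (0.651%) and 150 lower (0.729%). The 3 knockout samples lay entirely above the 3 wild-type samples for 508 genes (2.47%) and entirely below them for 521 (2.53%). The median difference over all genes was 0.0039 on the log2 scale.

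The median standard error of a gene's difference was 0.162 on the log2 scale. The 95% interval of the difference, not adjusted for the number of genes, lay within 2-fold in either direction for 18443 genes (89.7%) and within 1.5-fold for 14549 (70.7%). A total of 140 genes differed by more than 2-fold, but only 24 of them were well above background in every sample of the wild type or of the knockout, and 11 of those 24 had groups that did not overlap. The scatter of differences was widest among dim genes, as the plot of difference against level shows.

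**Figure D1:**
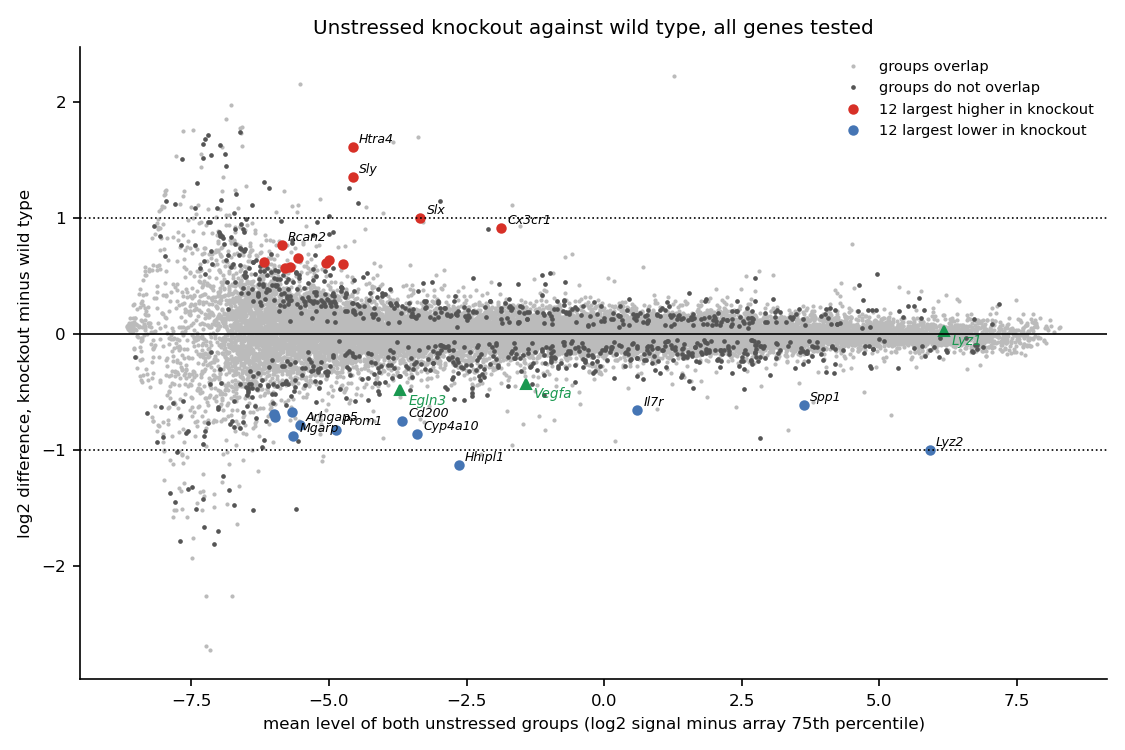
Log2 difference (knockout minus wild type, unstressed) of each of the 20570 genes against its mean level, with dotted lines at 2-fold. Grey points are genes whose groups overlap and dark points the 508 higher and 521 lower genes whose groups do not. Blue and red mark the 12 largest lower and 12 largest higher differences by the naming rule, with labels on those beyond 0.75 or brighter than a level of -4, and green triangles mark Egln3, Vegfa and Lyz1. Lyz2 is the only coloured point at a high level that reaches 2-fold.

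Lyz2 encodes lysozyme M, a bactericidal enzyme that macrophages make in large amounts. Its level was 6.63, 6.22 and 6.39 in the wild-type samples and 5.52, 5.34 and 5.37 in the knockout samples, and every knockout sample lay below every wild-type sample. The difference was -1.003 (SE 0.16, 95% interval -1.35 to -0.66), a 2.005-fold lower signal that missed the threshold (limma adjusted p = 0.206). Leaving out 1 sample at a time left it at -0.90 or beyond, and within the slides that held both genotypes it was -1.02 and -0.79. Lyz2 was read by 1 probe. Lyz1, the neighbouring and closely similar lysozyme P gene, read 6.61, 5.74 and 6.12 in the wild type and 6.09, 6.24 and 6.20 in the knockout, a difference of 0.02 (SE 0.18). The 2 genes are near-identical in sequence, so their probes may share signal. As background, the Lyz2 locus also carries the recombinase of a widely used myeloid Cre line; the labels name no such line here.

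The same Lyz2 difference was present in both stressed conditions, which share no sample with the unstressed comparison but may share its mice. At oxygen 1 the wild type read 5.55, 5.29 and 5.46 and the knockout 4.71, 4.08 and 4.46. After starvation the wild type read 6.59, 6.44 and 6.24 and the knockout 5.50, 5.47 and 5.12. The groups did not overlap in either condition, and the differences were -1.02 and -1.06. Averaged over oxygen 1 and starvation, Lyz2 was 2.05-fold lower in the knockout (log2 difference -1.04, SE 0.11), which passed the threshold (limma adjusted p = 0.00477). This average was chosen after the data had been seen, and 2 of 20570 genes (0.00972%) passed it, with 449 (2.18%) at an unadjusted p under 0.05. With samples of one genotype and number as a random block the limma adjusted p of Lyz2 was 0.00568. With the stressed samples of a number averaged first, 3 values against 3, it was 0.349, which missed the threshold, as that of every other gene did, with 455 genes at an unadjusted p under 0.05.

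Hhipl1, which encodes a secreted protein related to the hedgehog-interacting protein, was the other. Its unstressed levels were -2.28, -1.99 and -1.95 in the wild type and -2.89, -3.39 and -3.34 in the knockout. The groups were apart by more than the spread within either, and the difference of -1.13 (SE 0.21, 95% interval -1.58 to -0.69) missed the threshold (limma adjusted p = 0.527). It was -1.06 at oxygen 1 and -1.10 after starvation, again without overlap, and -1.08 averaged over both (SE 0.15, limma adjusted p = 0.0303), which also passed. This call was lost in 9 of the 12 fits that left out 1 stressed sample (adjusted p between 0.0629 and 0.148) and kept without replicate 2 of the wild type or replicate 3 of the knockout at oxygen 1, or replicate 3 of the starved wild type. It was also lost with the random block (0.0521) and with numbers averaged (0.205). A second, dimmer probe of Hhipl1 was well above background in 0 of the 6 unstressed samples. Hhipl1 lies on chromosome 12, as Egln3 does, but is not among the 30 measured genes nearest to Egln3.

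Prom1, which encodes the membrane glycoprotein prominin-1 (CD133) of stem and progenitor cells, followed the same order at a low level. The wild type read -4.44, -4.90 and -4.05 and the knockout -5.39, -5.38 and -5.09, a difference of -0.83 (SE 0.21, adjusted p = 1.00). It was -0.60 at oxygen 1 and -0.85 after starvation, and its groups did not overlap in any of the 3 conditions. Cyp4a10, a fatty acid omega-hydroxylase and target of PPAR-alpha, read -3.11, -3.02 and -2.77 in the wild type and -3.69, -3.91 and -3.90 in the knockout. Its difference was -0.86 (SE 0.19, adjusted p = 1.00) unstressed and -0.55 at oxygen 1, without overlap in both, and -0.74 after starvation, where the groups overlapped. Both have dimmer probes that were well above background in at most 1 of the 6 samples.

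Genes whose groups were apart in the same direction in all 3 conditions numbered 6 on the lower side, or 1.15% of the 521 that did not overlap unstressed, and 5 on the higher side, or 0.984% of the 508. For comparison, 0.102% of all genes had the knockout wholly below the wild type both at oxygen 1 and after starvation, and 0.141% had it wholly above in both. Lyz2, Hhipl1 and Prom1 were the 3 of the lower 6 that carry a gene symbol. A further transcript that received no symbol here, NM_146065, was among the brighter of them, at 3.07, 3.23 and 3.53 in the wild type and 2.64, 2.497 and 1.99 in the knockout. Its difference was -0.90, and it was -0.88 at oxygen 1 and -0.97 after starvation. All 5 on the higher side were predicted genes, clone names or transcripts without a symbol. These names were chosen after their values were seen.

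**Figure D2:**
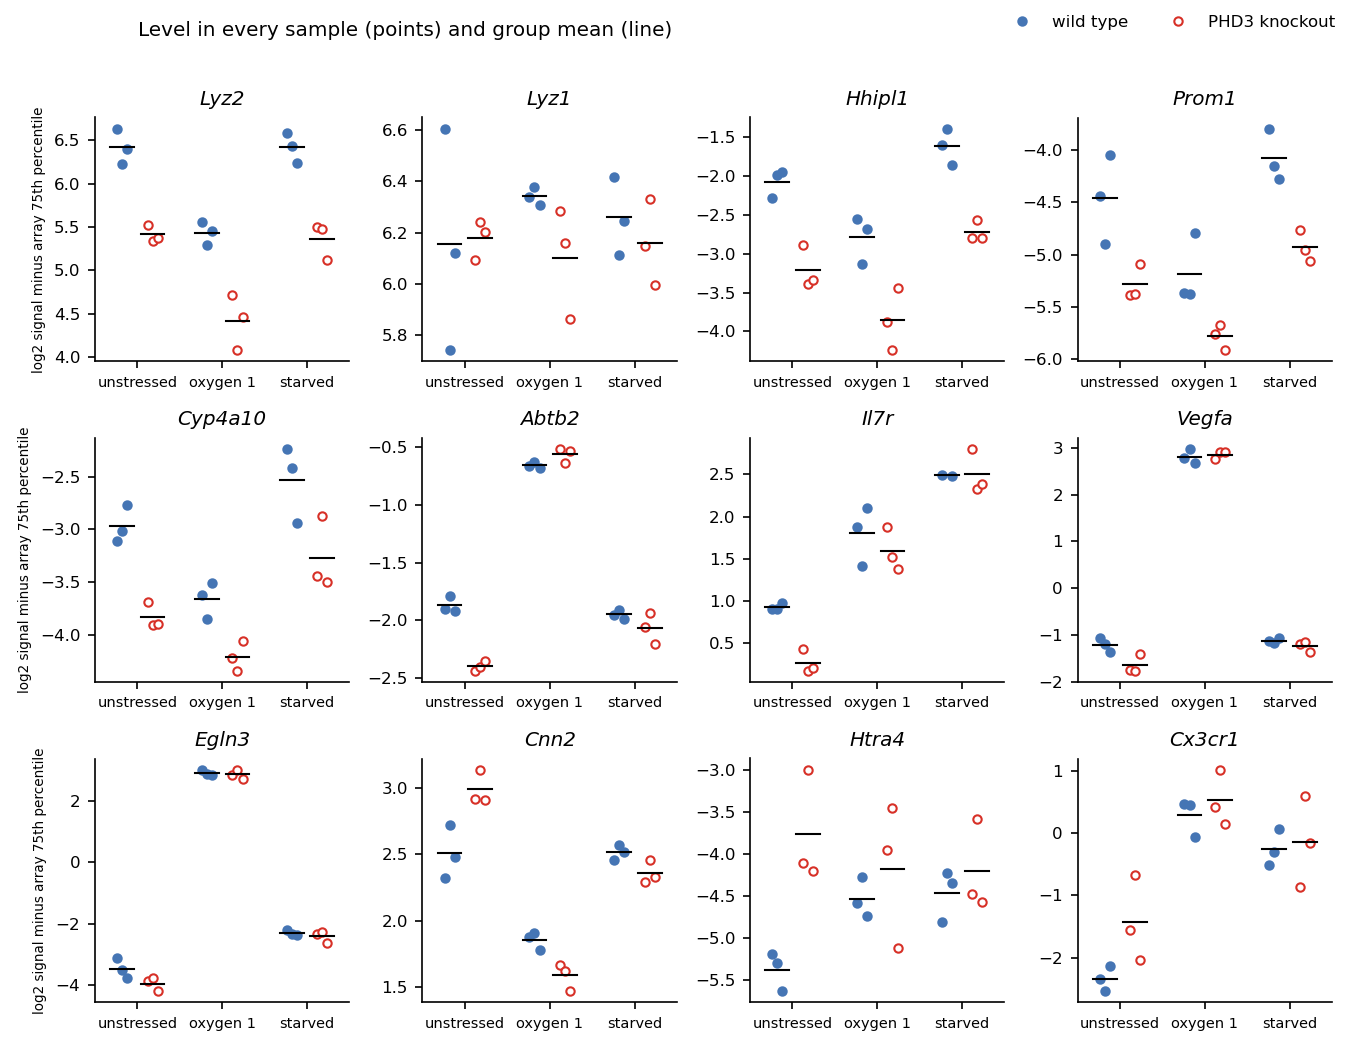
Level (log2 signal minus the array's 75th percentile) of 12 genes in every sample of the 3 conditions, filled blue points for wild type and open red points for PHD3 knockout, with a line at each group mean of 3 samples. Vertical scales differ between panels. Lyz2, Hhipl1 and Prom1 show separate genotypes in all 3 conditions, and Abtb2, Il7r and Vegfa separate genotypes unstressed but overlapping ones in both stressed conditions, while the genotype difference of Cnn2 has opposite signs unstressed and stressed.

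Among the other members of the 12 largest lower differences, Il7r, Spp1 and Cd200 differed less in the stressed samples. Il7r, the receptor chain for interleukin-7, read 0.90, 0.91 and 0.97 in the wild type and 0.43, 0.17 and 0.21 in the knockout. Its difference was -0.66 (SE 0.18, adjusted p = 1.00) unstressed, -0.21 at oxygen 1 and 0.01 after starvation. Spp1, the secreted phosphoprotein osteopontin, read 4.02, 4.02 and 3.75 in the wild type and 3.60, 3.36 and 2.98 in the knockout, a difference of -0.62 (SE 0.22, adjusted p = 1.00). It was -0.17 and -0.28 in the stressed conditions. Cd200, a ligand that restrains myeloid cells through its receptor, read -3.39, -3.30 and -3.22 in the wild type and -3.95, -3.86 and -4.35 in the knockout, a difference of -0.75 (SE 0.21, adjusted p = 1.00). It was -0.16 at oxygen 1, with overlap, and -0.30 after starvation, where the wild type read -1.33, -1.62 and -1.44 and the knockout, still wholly below, -1.71, -1.90 and -1.68.

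The rest of the lower 12 lay near the dim end and several rested on 1 sample. Arhgap5, a GTPase-activating protein, read -5.76, -5.74 and -3.91 in the wild type and -5.93, -6.08 and -5.77 in the knockout, and its difference of -0.79 became -0.17 without replicate 3 of the wild type. Kdelr3, a receptor that returns escaped proteins to the endoplasmic reticulum, went from -0.72 to -0.27 without replicate 3 of the knockout. Mgarp, a mitochondrial protein, read -4.24, -5.69 and -5.69 in the wild type and was not well above background in any knockout sample. Its fitted difference of -0.88 became -0.40 without replicate 1 of the wild type. Wdr19, a subunit of the ciliary transport machinery, went from -0.67 to -0.37 without replicate 2 of the wild type. Frem3, an extracellular matrix protein, differed by -0.69 on one probe, without overlap, and by -0.36 on a second, where the groups overlapped.

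The 12 largest higher differences were dimmer still. Htra4, a secreted serine protease, had the largest, with levels of -5.19, -5.30 and -5.63 in the wild type and -4.10, -2.99 and -4.20 in the knockout. The knockout samples lay above every wild-type sample, and the difference of 1.61 (SE 0.40, adjusted p = 1.00) was 1.23 without replicate 2 of the knockout. It was 0.35 at oxygen 1 and 0.25 after starvation, where the groups overlapped. Cx3cr1, the fractalkine receptor of monocytes and resident macrophages, read -2.33, -2.54 and -2.13 in the wild type and -1.55, -0.67 and -2.04 in the knockout. Its difference of 0.91 (SE 0.37, adjusted p = 1.00) was 0.54 without replicate 2 of the knockout, and 0.24 and 0.11 in the stressed conditions. On its second, dimmer probe the groups overlapped (0.51).

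Sly and Slx, on the Y and X chromosomes, belong to multicopy families of male germ cells whose copies share sequence, so their values are uncertain as to the copy. Sly read -4.84, -5.93 and -4.94 in the wild type and -3.52, -3.89 and -4.26 in the knockout, a difference of 1.35 (SE 0.31). Slx differed by 1.00 (SE 0.45), by 1.08 at oxygen 1 and by 1.05 after starvation, with overlap in both stressed conditions. The other 8 were Rcan2, a calcineurin regulator (0.76), the ciliary protein gene Ccdc89 (0.65), the lipoxygenase family member Aloxe3 (0.64), the taste receptor subunit Tas1r1 (0.61), the metalloprotease Adam1a (0.61), the glycerol-3-phosphate acyltransferase Gpat2 (0.60), the retinoid carrier Rlbp1 (0.58) and the unconventional myosin Myo6 (0.57). Each of the 12 had an adjusted p of 1.00.

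Both sets of 12 were chosen from the unstressed samples, so their sizes there are a description. The next differences outside the rule were -0.61 and 0.57, next to Spp1 at -0.62 and Myo6 at 0.57 inside it. The median wild-type level was -3.88 for the lower 12 and -5.37 for the higher 12, against -1.12 over all genes. The lower 12 had a median difference of -0.77 unstressed, -0.19 at oxygen 1 and -0.29 after starvation, and 10 of 12 had the same sign in all 3 conditions. The higher 12 had medians of 0.64, 0.12 and 0.17, and 6 of 12 had the same sign in all 3 conditions. Over all genes the share with the same sign in all 3 conditions was 26.6% of those lower unstressed and 29.9% of those higher. Across genes, the unstressed differences correlated with those at oxygen 1 at r = 0.108 and with those after starvation at r = 0.127, which is a description over genes measured on arrays of the same slides.

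**Figure D3:**
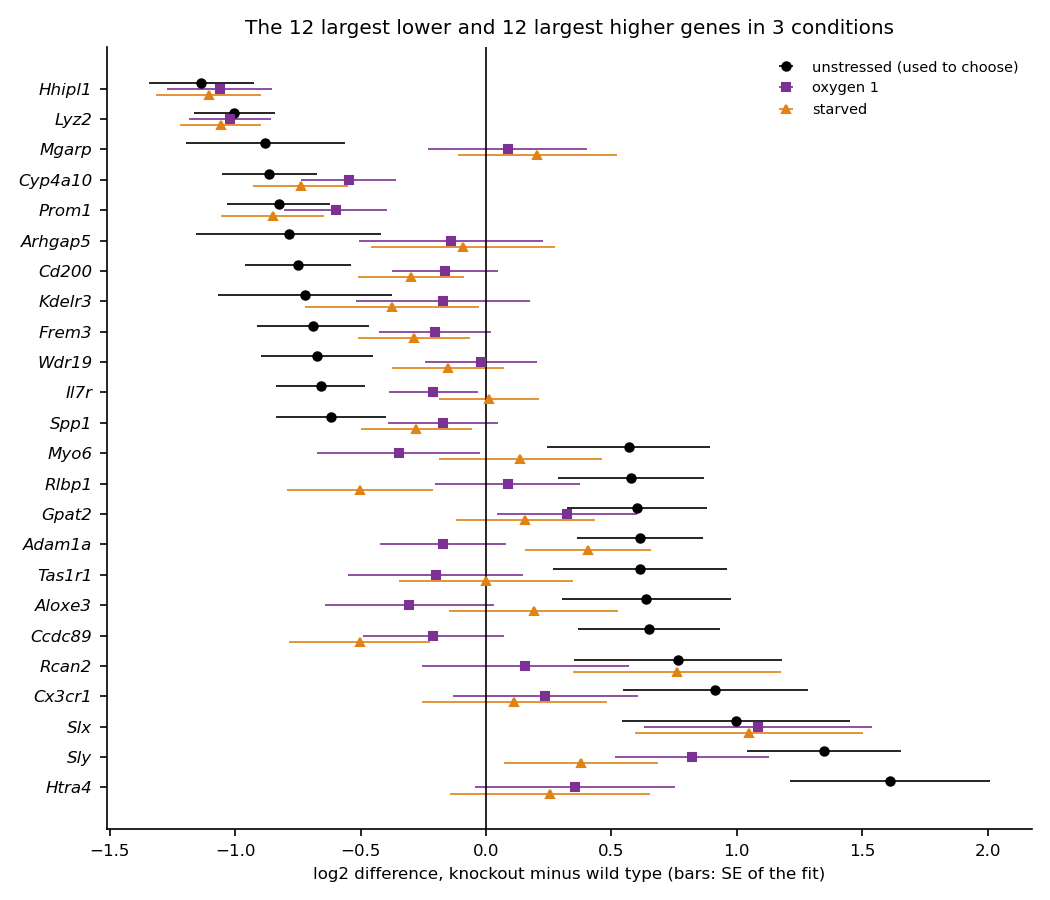
Log2 difference (knockout minus wild type) of the 24 genes in unstressed samples (black circles), at oxygen 1 (purple squares) and after starvation (orange triangles), with the standard error of the fit. The black points chose the genes. Hhipl1, Lyz2, Cyp4a10 and Prom1 keep differences of -0.55 or beyond in all 3 conditions, while most others move toward 0 in the stressed samples.

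Whether the unstressed genotype difference itself departed from that under stress was tested by interaction. Against oxygen 1, 0 of 20570 genes (0.00%) passed and 221 (1.07%) had an unadjusted p under 0.05. Against starvation, 0 (0.00%) passed and 205 (0.997%) had an unadjusted p under 0.05. For Lyz2 the unstressed difference was 0.016 less negative than at oxygen 1 and 0.054 less negative than after starvation (limma interaction adjusted p = 1.00 in each). Abtb2 and Cnn2, chosen after their values were seen, had the opposite pattern. Abtb2, an ankyrin repeat and BTB domain protein, read -1.91, -1.79 and -1.92 in the wild type and -2.44, -2.41 and -2.35 in the knockout. Its difference was -0.53 (SE 0.08) unstressed, 0.10 at oxygen 1 and -0.12 after starvation.

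Cnn2, the actin-binding protein calponin 2, read 2.32, 2.72 and 2.48 in the wild type and 2.92, 3.14 and 2.91 in the knockout. Its difference was 0.48 (SE 0.11) unstressed, -0.27 at oxygen 1 and -0.16 after starvation, and the groups did not overlap in any of the 3 conditions. Its interaction was 0.75 against oxygen 1 and 0.64 against starvation, and neither passed (limma adjusted p = 1.00 in each). On the 2 slides that held both genotypes its unstressed difference was 0.43 and 0.04. A second probe, well above background in all 6 samples, read 1.11, 1.21 and 1.29 in the wild type and 1.58, 1.54 and 1.02 in the knockout, with overlap and a difference of 0.18.

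Egln3 itself, the gene named by the knockout, read -3.10, -3.51 and -3.77 in the wild type and -3.88, -3.76 and -4.20 in the knockout. The groups overlapped only between replicate 3 of the wild type and replicate 2 of the knockout. The difference was -0.49 (SE 0.16, 95% interval -0.82 to -0.15) with a limma adjusted p of 1.00. It was -0.31 without replicate 1 of the wild type and -0.18 without both samples that stood apart, and -0.43 and -0.25 within slides. A second probe read -3.73, -4.13 and -4.33 in the wild type and -4.43, -4.20 and -4.65 in the knockout. Both probes were well above background in all 6 samples, including those labelled knockout. Their position against the deletion is not stated in the labels, so their signal checks nothing about the genotype. At oxygen 1 Egln3 read a mean of 2.90 in the wild type and 2.85 in the knockout, a difference of -0.05, and after starvation the difference was -0.11.

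The other HIF hydroxylases and the HIF subunits, of which 10 of 11 including Egln3 were measured, gave no call. Egln1 differed by -0.04 (SE 0.24), Egln2, which encodes PHD1, by 0.04 (SE 0.12) and Hif1an, the asparaginyl hydroxylase that blocks HIF's coactivator binding, by 0.11 (SE 0.14). P4htm, a membrane-bound prolyl hydroxylase read at a dim level, differed by 0.43 (SE 0.23). Vhl, the substrate adaptor that takes hydroxylated HIF to degradation, differed by -0.02 (SE 0.10).

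Among the subunits, Hif1a read 0.40, 1.14 and 0.96 in the wild type and 0.48, 0.55 and 0.45 in the knockout, a difference of -0.34 (SE 0.25) in which the lowest sample of all was a wild-type one. Without replicate 2 of the wild type it was -0.19. Epas1, which encodes HIF-2 alpha, differed by 0.03 (SE 0.09) and Arnt, the shared beta subunit, by -0.03 (SE 0.21). Hif3a, an alpha subunit with isoforms that restrain the others, read -1.03, -0.97 and -0.999 in the wild type and -0.77, -0.94 and -0.43 in the knockout. It was the only one of the 10 whose groups did not overlap (10%, against 2.47% of all genes wholly above), at 0.28 (SE 0.16). Without replicate 3 of the knockout it was 0.14. On its other, dimmer probes the groups overlapped (0.09 and 0.27).

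Of 43 measured genes of the hypoxia response out of 44 listed, 0 passed the threshold. The knockout lay wholly below the wild type for 8 of them (18.6%, against 2.53% of all genes) and wholly above for 1. Of the 43 differences 29 were negative, where 51.3% over all genes were positive. The median was -0.067, next to 0.0039 over all genes. The list was chosen with earlier results of these data known and no test of it was made. The median was 0.003 at oxygen 1 and 0.031 after starvation. Within the 2 slides that held both genotypes it was -0.074 and -0.091. Leaving out unstressed samples 1 at a time left the median between -0.093 and -0.063.

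Vegfa, the angiogenic growth factor, had the smallest p of these 8. It read -1.07, -1.19 and -1.37 in the wild type and -1.75, -1.77 and -1.40 in the knockout, a difference of -0.43 (SE 0.12, adjusted p = 1.00). Replicate 3 of both genotypes, which shared a slide, differed by -0.03, and the pair on the other slide by -0.57. Its second probe was also without overlap, at -3.80, -3.77 and -3.77 in the wild type and -4.14, -4.09 and -3.99 in the knockout. Ankrd37, a small ankyrin repeat protein and HIF target, read -2.12, -1.99 and -2.19 in the wild type and -2.30, -2.40 and -2.69 in the knockout, a difference of -0.36 (SE 0.12). At oxygen 1 Vegfa differed by 0.05 and Ankrd37 by 0.11.

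The count of 8 rests on the brightest probe of each gene. Of the 4 with further probes, only Vegfa was apart on another: the 3 other Bnip3l probes (0.026, -0.044 and -0.051), the second of Vldlr (0.026) and the second of Hilpda (-0.17) had groups that overlapped. The remaining members with the knockout wholly below were Car12, a carbonic anhydrase that was well above background in 1 wild-type and 0 knockout samples (-0.84), Mgarp (-0.88), the collagen prolyl hydroxylase P4ha2 (-0.23), the lipid droplet protein Hilpda (-0.21), the lipoprotein receptor Vldlr (-0.21) and the mitophagy receptor Bnip3l (-0.14). Tfrc, the transferrin receptor, was the 1 wholly above (0.11), or 2.33% of the list against 2.47% of all genes. On its other probes, well above background in all 6 samples, the groups overlapped (0.07 and 0.24). Slc2a1, the glucose transporter GLUT1, differed by -0.23 with overlap. The glycolysis list, 20 of 20 measured, had a median difference of 0.006 with 0 members apart, and the 95% interval of 18 of its genes lay within 1.5-fold.

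**Figure D4:**
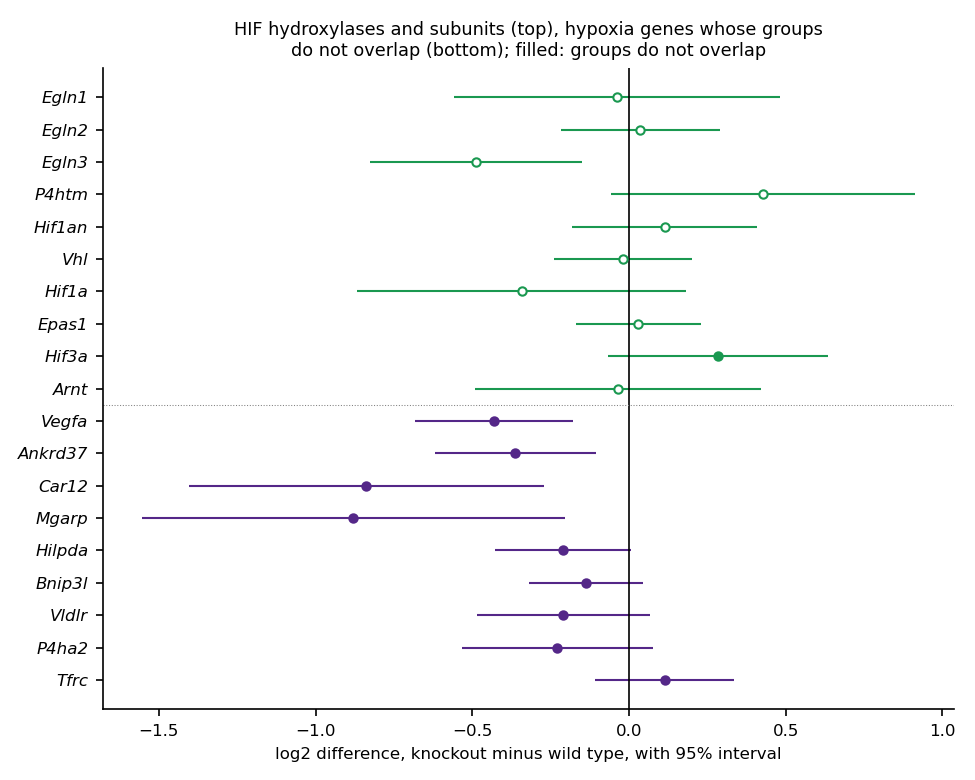
Log2 difference (knockout minus wild type, unstressed) with its 95% interval for the 10 measured HIF hydroxylases and subunits (green, top) and the 9 hypoxia-response genes whose groups do not overlap (purple, bottom). Filled points mark groups that do not overlap. Of the 9, 8 lie below 0, and in the upper block Egln3 has the lowest difference at -0.49.

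Cell-cycle genes leaned the other way. Of 46 measured out of 47 listed, 0 passed the threshold and 43 had a positive difference, against 51.3% of all genes. The list median was 0.125. The knockout lay wholly above the wild type for 8 (17.4%, against 2.47% of all genes) and wholly below for 0. Foxm1, the transcription factor of mitotic genes, read -1.91, -2.37 and -2.11 in the wild type and -1.87, -1.64 and -1.60 in the knockout, a difference of 0.43 (SE 0.16, adjusted p = 1.00). The replication helicase subunits Mcm2 (0.22) and Mcm3 (0.17), the S-phase cyclin Ccna2 (0.21), the spindle protein Nusap1 (0.19), the DNA methylation factor Uhrf1 (0.18), the mitotic activator Cdc20 (0.16) and the S-phase transcription factor E2f1 (0.08) were the other 7. A second, dimmer probe of Uhrf1 had groups that overlapped (0.29). That of Foxm1 was without overlap (1.67, with replicate 3 of the knockout at -2.41).

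The mean level of the 46 genes was 0.28, 0.33 and 0.37 in the wild-type samples and 0.40, 0.55 and 0.37 in the knockout samples, so 1 knockout sample stood above the rest and replicate 3 of the 2 genotypes were close. The median difference was 0.163 at oxygen 1 and 0.146 after starvation, with 42 and 40 of 46 positive. With slide as a block the unstressed median was 0.057, and within slides it was 0.019 and 0.093, next to -0.039 and 0.027 over all genes. Without replicate 2 of the knockout it was 0.083.

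Interferon-stimulated genes were mostly on the lower side in the unstressed knockout. Of 34 measured 0 passed and the median was -0.145. Of the differences 31 were negative, where 51.3% over all genes were positive. The knockout was wholly below for 3 (8.82%, against 2.53% of all genes): Gbp3 and Gbp2, interferon-induced GTPases of cell-autonomous defence (-0.47 and -0.17), and Ifit3, an antiviral RNA-binding protein (-0.30). Gbp3 read 1.91, 1.75 and 1.85 in the wild type and 1.28, 1.45 and 1.38 in the knockout. The list mean was 2.24, 2.56 and 2.62 in the wild type and 2.39, 2.39 and 2.23 in the knockout, so the lowest knockout and the lowest wild-type sample were close. The median was -0.079 at oxygen 1 and 0.101 after starvation, with 30 of 34 positive in the latter, and within slides the unstressed median was -0.354 and -0.147.

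Inflammatory genes and NF-kB feedback regulators, 40 of 44 measured, had 29 negative differences, a median of -0.065 and 3 members wholly below (7.5%, against 2.53% of all genes): the chemokines Cxcl5 (-0.46), Ccl12 (-0.31) and Ccl5 (-0.20). Tnf differed by 0.07, Il1b by -0.002 and Il10 by 0.06, each with overlap. Replicate 3 of the genotypes, on 1 slide, gave a median of -0.259 over the list and the pair on the other slide -0.040. NRF2 targets, which encode antioxidant enzymes, had 22 of 25 negative differences and a median of -0.095. Over all genes 51.3% of differences were positive. Of the NRF2 targets only Slc7a11, the cystine importer that feeds glutathione synthesis, was apart (4% wholly below, against 2.53% of all genes). Slc7a11 read -1.13, -1.07 and -1.11 in the wild type and -1.60, -1.48 and -1.52 in the knockout (difference -0.43, SE 0.17). It is also an ATF4 target, and in that list of 28 the knockout was wholly below for 3 (11%, against 2.53% of all genes), the others being Vldlr (-0.21) and Atf3 (-0.14).

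The series title concerns macrophage survival, and the apoptosis lists were near 0 unstressed. Of 38 measured pro-apoptotic genes 0 passed, the median was -0.046 and 1, Bnip3l, was wholly below (2.63%, against 2.53% of all genes), on its brightest probe alone. Of 34 anti-apoptotic genes 0 passed and the median was 0.020. Wholly above was 1 (2.94%, against 2.47% of all genes), Mertk (0.10). Wholly below were 2 (5.88%, against 2.53%): Csf1, which encodes M-CSF (-0.19), and Naip2, an inflammasome sensor of the NAIP family (-0.13). On 2 further, dimmer probes of Csf1 the groups overlapped (-0.003 and -0.069). The 95% interval lay within 1.5-fold for 31 of the 38 and 31 of the 34. The 25 p53 targets had a median of -0.062, with 1 wholly below (4%, against 2.53% of all genes). This was Mdm2, the ligase that degrades p53 (-0.16). Genes encoding proteins that PHD3 has been described to bind or modify, 17 of 17 measured, had a median of -0.012 and 0 members apart, Hif1a being the lowest at -0.34.

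Metabolic lists lay near 0. All 50 measured oxidative phosphorylation genes had 95% intervals within 1.5-fold, with 0 apart and a median of 0.012. Cholesterol biosynthesis, 26 genes, had a median of 0.038 and 0 apart. Autophagy and lysosome, 33 genes, had a median of -0.007 with 1 gene wholly below (3.03%, against 2.53% of all genes). This was Lamp2, a lysosomal membrane protein (-0.33), on 5 values, 1 having been removed by the scanner software. On its second probe, well above background in all 6 samples, the groups overlapped (-0.14). Of 21 genes of lipid handling 1 was wholly below (4.76%, against 2.53% of all genes). This was Fabp4, a fatty acid carrier of macrophages, at 0.91, 1.23 and 1.08 in the wild type against 0.81, 0.90 and 0.58 in the knockout (-0.31, SE 0.13). The unfolded protein response, 22 genes, had a median of 0.058 with Creld2 (0.14) and Manf (0.08), chaperone-like proteins of the endoplasmic reticulum, wholly above (9.09%, against 2.47% of all genes).

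Macrophage identity genes, 33 of 34 measured, had a median of 0.022 and spanned the widest range of any list, from Lyz2 at -1.003 to Cx3cr1 at 0.91, with Mertk the third member apart. The shares were 6.06% wholly above and 3.03% wholly below, against 2.47% and 2.53% of all genes. Of 15 measured genes of alternative activation, Pparg, a regulator of lipid-handling macrophages, was wholly above (0.20), and the mannose receptor Mrc1 (-0.17) and the transcription factor Klf4 (-0.24) wholly below. These were 6.67% above and 13.3% below, against the same shares of all genes. Among 22 antigen presentation genes 1 (4.55%, against 2.53% of all genes), H2-K1, a class I heavy chain, was wholly below (-0.12). On its second probe the groups overlapped (-0.035). The marker lists of other cells gave 0 calls. In them the knockout was wholly above for Cd3e of T cells (0.43), Acp5, the tartrate-resistant phosphatase shared by osteoclasts and macrophages (0.31), and Epor, the erythropoietin receptor (0.28). It was wholly below for Il7r (-0.66), Col3a1, a fibrillar collagen (-0.37), and Padi4, a neutrophil histone deiminase (-0.30). On a second probe of Padi4 the groups overlapped (-0.029). Wholly above were 1 of 10 lymphocyte (10%), 1 of 12 osteoclast (8.33%) and 1 of 7 erythroid and megakaryocyte genes (14.3%). Wholly below were 1 of 10 lymphocyte (10%), 1 of 17 stromal and endothelial (5.88%) and 1 of 16 neutrophil genes (6.25%). Over all genes the shares were 2.47% and 2.53%. The summed signal of the 4 measured osteoclast markers did not overlap between the groups. It was 42.5 to 52.0 in the wild type and 53.6 to 70.2 in the knockout. Most of it came from Acp5, whose second probe, well above background in all 6 samples, had groups that overlapped (0.24). The others overlapped too, at -0.33 for Ctsk, -0.29 for Calcr and 0.19 for Dcstamp. Of the 12 genes of the osteoclast list 8 were lower, with a median of -0.035. The part of these markers in the results was not tested.

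Across the 27 lists, which held 628 distinct measured genes, 0 genes passed and 15 (2.39%) had an unadjusted p under 0.05, against 1.38% of all genes. List medians ran from -0.172 for neutrophil markers, where the pair on 1 slide gave -0.644 and the pair on the other 0.057, to 0.125 for the cell cycle. A further 71 listed genes were not measured.

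**Figure D5:**
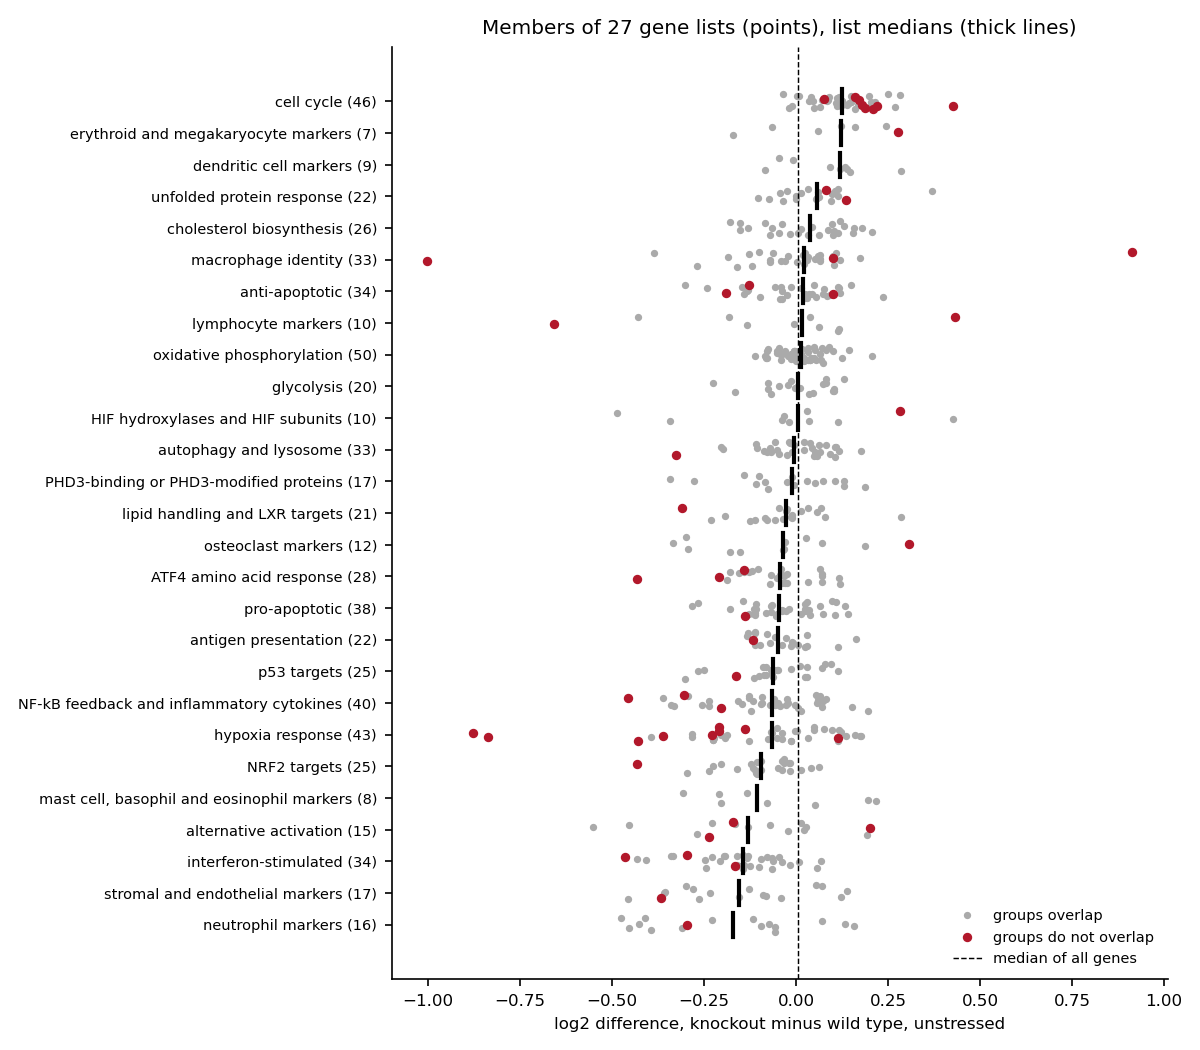
Log2 difference (knockout minus wild type, unstressed) of every measured member of the 27 gene lists, ordered by list median (thick black lines), with the number of members in parentheses and the median of all genes as a dashed line. Red points mark members whose groups do not overlap, grey points the rest. The hypoxia list has 8 red points below 0 and the cell-cycle list 8 above, while oxidative phosphorylation and glycolysis have none.

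The measured genes nearest to Egln3 on chromosome 12, 15 on each side in RefSeq gene order (assembly GRCm38.p6), were examined because they lie beside the targeted locus. Their median difference was -0.045 and 20 of 30 were negative, where 51.3% over all genes were positive. The groups overlapped in all but Arhgap5, which was wholly below, as were 2.53% of all genes. Without Arhgap5 the differences ran from -0.33 to 0.15. Nfkbia, which encodes the NF-kB inhibitor I-kappa-B alpha, was among them at 0.06. The 95% interval lay within 1.5-fold for 25 of the 30. Srp54b, a copy of the signal recognition particle gene that has close paralogues beside it, read -1.57, 0.76 and 1.09 in the wild type and 0.41, -1.47 and 0.35 in the knockout, so that 1 sample of each genotype was low, and its value is uncertain as to the copy.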

How the data were processed

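The 18 samples fall into 6 groups of 3 by their labels, and the unstressed comparison uses 6 of them. Per the file headers, the deposited intensity values are spot signals after background subtraction and detrending by Agilent Feature Extraction 10.7.3.1, with the array designed on mm9. The authors' deposited matrix of log2 values served as an alternative; the submitters' processing notes name limma.

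Spots that the scanner software marked as outliers were removed (0.118% of values missing), log2 processed signals were centred on each array's 75th percentile, and arrays of a sample were averaged. A probe was tested when well above background in at least 3 of 18 samples with at least 2 values per group. Of 39429 probes, 26055 (66.1%) matched a RefSeq symbol and 13374 had none; each gene was taken from its brightest probe, giving 20570 genes, 13890 with a symbol. Limma 3.58.1 (R 4.3.3) fitted 6 group means over 18 samples (12 residual and 2.56 prior degrees of freedom), with two-sided moderated tests and Benjamini-Hochberg adjustment at 0.05; the script was tested on simulated data. P-values treat samples as independent. The number of arrays limits the precision.

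Named genes were the HIF hydroxylases and subunits, Lyz1 and Lyz2, calls, the 12 largest differences on each side among symbol-bearing genes whose groups did not overlap and that were well above background in every sample of either group, up to 3 members of each list with the smallest p, markers, and neighbours of Egln3 that were apart. Most other names are said to be chosen after their values were seen or complete a count. Tnf, Il1b, Il10, Nfkbia and Srp54b were named outside these rules. The comparison, members and gene lists were chosen with earlier results of these data known. Probe positions were not used here.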

Additional observations from a re-analysis of the deposited data

How the results depend on the processing

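The count of 0 genes past the threshold unstressed (284 at an unadjusted p under 0.05) held under 21 of 23 alternative settings, including the authors' values and leaving out each sample. Centring on the array median gave 1, Lyz2 (adjusted p = 0.0487), and limma's array weights gave 5: Abtb2 (0.0189), Lyz2 (0.0238), Hhipl1 (0.0344) and 2 transcripts without a symbol; the cause was not tested. The interaction counts were 0 throughout. Of 2786 values recomputed for 122 named genes, 6 newly passed, 3 moved by more than 1 SD and no called value changed sign. The sign changed in 36 values of 12 genes, none past the threshold and each at 0.33 or less from 0 in the reported fit.

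The average over oxygen 1 and starvation called 2 genes, but 1 without a filter on dim probes, 5 with array weights, 1 with samples of one genotype and number as a random replicate block, 0 with the stressed samples of a number averaged first, and between 1 and 4 when leaving out 1 sample. Lyz2 missed the threshold only with numbers averaged (adjusted p = 0.349); in the other settings run it was between 0.000315 and 0.0284. Hhipl1 ranged from 0.00155 to 0.205. Both number-based settings were chosen after seeing the data.

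Deviations of unstressed wild-type and knockout samples with one number correlated at -0.357, 0.038 and -0.076. Those with different numbers correlated between -0.243 and 0.311. With 3 samples in each group, these values do not settle whether a number pairs the genotypes. Within a genotype, across conditions, 18 same-number pairs correlated between -0.088 and 0.308 (median 0.074, 8 over 0.1) and pairs of different numbers at a median of -0.057; whether these numbers mark shared mice is not settled. The random block's correlation was 0.057. With the replicate number as a block the unstressed count stayed at 0 and that of the average was 1.

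Signal over background limits dim genes most, and the number of arrays all of them; a p that misses the threshold does not show equal levels.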
